A study of Rattus norvegicus with 3 samples.

Results

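The blood-labyrinth barrier transporters and Plvap were followed in the endothelial cells of the developing rat cochlea. The members were chosen by name and function as 8 genes: the transporters Slc2a1, Slco1a4, Abcb1a, Abcb4, Abcg2, Slc7a5 and Mfsd2a, and Plvap. Of these, 7 had a row of their own among the 32623 genes of the matrices, and Abcb1a was not analysed here. The libraries came from the dissociated cochlear basal membrane of untreated Sprague-Dawley rats at postnatal day 1 (P1), 7 (P7) and 14 (P14), with many rats pooled and 1 library per stage. The labels name the cells as greater epithelial ridge cells, but the libraries held many cell types. Of 29 clusters found, the 1 named cochlear epithelium-like held 557 of 30641 kept cells. By the paper's methods, spiral ganglia, spiral ligament and stria vascularis had been dissected away. The cell make-up differed by stage. A cluster led by Coch held 4 cells at P1, 5 at P7 and 1752 at P14. The cluster led by Isyna1 held 2960, 166 and 0. Which vessels the endothelial cells came from was not tested, and may differ between stages. Because each stage was represented by 1 library, stage and library cannot be told apart, no test between stages was made, and all intervals are 95% intervals for counting error only.

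The vessels of the inner ear, above all the capillaries of the stria vascularis, form a barrier between blood and the cochlear fluids that resembles the blood-brain barrier. Endothelial cells of such barriers carry nutrient transporters and efflux pumps in their membranes and seal their contacts with tight junctions. Plvap forms the diaphragms of caveolae and fenestrae, marks permeable vessels, and is lost from brain endothelium as its barrier matures.

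Endothelial cells were taken as kept cells (501 to 4999 genes, under 25% mitochondrial UMIs) with 2 or more UMIs, or counted molecules, of the endothelial genes Cldn5, Cdh5, Flt1, Kdr and Egfl7. This rule selected 800 of 12779 cells at P1 (6.26%), 906 of 12581 at P7 (7.20%) and 1303 of 5281 at P14 (24.7%). The selection was not equally pure at the 3 stages. A UMI of any of 9 further endothelial genes (Tie1, Tek, Esam, Ptprb, Robo4, Sox18, Erg, Ecscr and Adgrl4, here called check genes) was found in 39.3% of rule cells at P1, 36.4% at P7 and 83.1% at P14. Rule cells whose only rule gene was Cldn5 numbered 378 at P1, 412 at P7 and 54 at P14, and only 20.6%, 19.5% and 68.2% of rule cells, in that order, lay in the endothelial-like cluster. Of rule cells with a check gene, 51.3%, 52.7% and 79.2% lay in it. Outside the rule, 17.7%, 16.6% and 10.5% of cells also held a check-gene UMI. At P1, 248 of the rule cells lay in a cluster led by Isyna1, Edil3 and Crym, and at P7, 247 lay in a cluster led by Pmch, Asb9 and Notum, whose 10 leading genes include Cldn5. The rule cells without a check gene carried the barrier transporters at 33.0 CPM at P1, against 32.8 CPM in all cells outside the rule, where CPM stands for counts per 1000000 UMIs of the cell set. At P7 these values were 39.6 and 43.8 CPM. At P14 they were 623 and 149 CPM, so there the check gene also left out cells that carried transporters. The levels and shares are therefore given for the rule cells and also for the rule cells with a check gene (314, 330 and 1083 cells) or the endothelial-like cluster (165, 180 and 911 cells), for which the 7 genes were left out of the clustering.

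The libraries differed in depth, with a median of 6565 UMIs per cell at P1, 6878 at P7 and 1614 at P14. For endothelial-like cells the medians were 9076, 6684 and 1115. Shares of cells with a UMI were therefore taken after every cell had been thinned to 1000 UMIs, which left out 2 of 165 endothelial-like cells at P1, 6 of 180 at P7 and 356 of 911 at P14. A UMI stands for 1 captured molecule read at its 3′ end, so no length scaling was applied, but genes may differ in how well they are captured. Between 16 and 53 kept barcodes were shared by each pair of libraries.

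Promoter sequences of 6 of the 7 genes were found in RefSeq (rat build GRCr8, 250 bases before to 50 after the start). The 3 printed here are those of the glucose transporter that ranked next to Plvap at P1, the transporter that differed most between the stages, and Plvap, 5′ to 3′ on the strand of the gene, with each CpG dinucleotide in capitals.
Slc2a1, chr5:138002272-138002571, plus strand: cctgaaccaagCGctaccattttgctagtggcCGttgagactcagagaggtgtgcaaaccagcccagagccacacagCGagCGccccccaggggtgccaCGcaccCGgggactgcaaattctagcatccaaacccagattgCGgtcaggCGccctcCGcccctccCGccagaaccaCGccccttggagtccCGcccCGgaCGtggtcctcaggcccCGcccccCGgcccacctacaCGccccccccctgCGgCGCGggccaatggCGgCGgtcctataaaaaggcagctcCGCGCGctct
Slco1a4, chr4:176495797-176496096, minus strand: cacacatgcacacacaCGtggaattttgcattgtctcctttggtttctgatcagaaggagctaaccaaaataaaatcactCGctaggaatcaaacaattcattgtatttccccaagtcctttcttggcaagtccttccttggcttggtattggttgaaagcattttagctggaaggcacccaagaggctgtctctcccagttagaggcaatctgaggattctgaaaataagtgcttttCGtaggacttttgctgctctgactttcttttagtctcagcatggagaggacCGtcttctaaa
Plvap, chr16:18231230-18231529, minus strand: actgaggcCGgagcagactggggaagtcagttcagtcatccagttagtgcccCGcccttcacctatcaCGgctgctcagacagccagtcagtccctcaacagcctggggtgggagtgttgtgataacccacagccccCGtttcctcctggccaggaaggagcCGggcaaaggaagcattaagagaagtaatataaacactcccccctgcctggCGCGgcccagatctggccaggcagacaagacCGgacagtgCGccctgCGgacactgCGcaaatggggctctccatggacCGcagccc
The Slc2a1 window held 25 CpG, more than 83.4% of the 33469 promoters in the table, Slco1a4 held 4 and Plvap 12, against a median of 7. Abcb4, Abcg2 and Slc7a5 held 35, 29 and 42. The letters ACAAT, the core bound by SOX factors, were found on either strand 3 times in the Slco1a4 window and in no other of the 6, while 33.7% of all promoters held at least 1 match. CTTTGA, the core of TCF and LEF sites, was in none of the 6 windows on either strand and in 16.1% of all. TATAAA on the printed strand was in those of Slc2a1 and Plvap and in 8.80% of all. These matches describe the letters of the windows and were not tested against the levels.

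All 7 genes were higher in endothelial than in other cells at P7 and P14. With higher meaning at least 2-fold on the log2(CPM + 10) scale among genes at 10 CPM or more in either group, 5 of the 6 measured genes were higher at P1 in rule cells, and 7 of 7 at P7 and at P14. Over all genes tested, 2.44% passed in the same direction at P1, 2.63% at P7 and 7.34% at P14. At P1 Slco1a4 (11.5 against 3.05 CPM) fell short of 2-fold on this scale and Mfsd2a (8.43 against 0.943 CPM) lay under 10 CPM, and both passed in rule cells with a check gene, where 7 of 7 passed at each stage against 5.27%, 5.02% and 8.94% of all genes. On the log2 scale, the median difference of the measured members in the rule cells was 2.06 at P1 over 6 genes. Over 7 genes it was 2.00 at P7 and 4.47 at P14. All genes tested gave −0.02, −0.02 and 0.04. Mfsd2a, left out at P1, was there at 0.752 on this scale, so the P1 and P7 medians cover unlike sets of genes.

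Slc2a1 encodes GLUT1, the glucose transporter of barrier endothelium. Its level in the endothelial-like cluster was 499 CPM at P1 (467 to 533), 766 CPM at P7 (722 to 811) and 1386 CPM at P14 (1324 to 1449). Each stage was above the one before it and no intervals overlapped, the ratio of P14 to P1 being 2.78 (2.56 to 3.01). In the rule cells the values were 125, 160 and 836 CPM, and in other cells 8.02, 9.61 and 28.2 CPM. After thinning, 38.7%, 49.4% and 55.7% of endothelial-like cells held a Slc2a1 UMI, against 0.745%, 0.923% and 2.17% of cells outside the rule. The unthinned shares were 80.6%, 83.9% and 68.3%, highest in the deeper libraries.

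Slc7a5 encodes LAT1, which exchanges large neutral amino acids and works as a pair with the heavy chain Slc3a2. Its level in the endothelial-like cluster was 215 CPM at P1 (194 to 238), 445 CPM at P7 (412 to 480) and 662 CPM at P14 (619 to 706). The 3 levels ascended with age without overlap, as for Slc2a1, by 3.08-fold (2.73 to 3.47) from P1 to P14. Rule cells gave 57.5, 96.1 and 421 CPM. Its partner Slc3a2 was at 1241 CPM at P1, 1804 at P7 and 1105 at P14, so both were higher at P7 than at P1, and from P7 to P14 Slc7a5 was higher and Slc3a2 lower. Mfsd2a, which carries lysophospholipids with omega-3 fatty acids and is known to hold down transcytosis in brain endothelium, was the least abundant member at P14. It was at 33.8 CPM (25.9 to 43.4), 110 CPM (93.6 to 128) and 128 CPM (110 to 149) in the endothelial-like cluster. In the cluster the step lay between P1 and P7 (3.24-fold, 2.41 to 4.42), and the intervals of P7 and P14 overlapped. In rule cells Mfsd2a was at 8.43, 22.8 and 84.4 CPM. There P7 was 2.70-fold above P1 (2.03 to 3.64), and P14 was 3.70-fold above P7 (3.05 to 4.51). With a check gene P14 was 1.84-fold above P7 (1.51 to 2.25), so the place of the step turned with the selection.

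Abcg2 encodes the efflux pump BCRP. It was at 365 CPM at P1 (338 to 394), 196 CPM at P7 (175 to 220) and 870 CPM at P14 (821 to 920) in the endothelial-like cluster. It was the only member whose level was lowest at P7 in all 3 endothelial sets, and the rule cells gave the same order, with 92.2, 45.1 and 555 CPM. The P7 level was 1.86-fold below that of P1 (1.62 to 2.14) in the cluster. Cells outside the rule showed the same order, with 9.57, 3.80 and 12.1 CPM. Abcb4 encodes a phosphatidylcholine transporter best known from the bile canaliculi of the liver, and is a close paralog and chromosomal neighbour of Abcb1a, which encodes the drug pump P-glycoprotein. Which of the genes the reads on its row came from was not tested. This row was at 68.7 CPM (57.2 to 81.9), 86.6 CPM (72.4 to 103) and 1010 CPM (957 to 1065) in the endothelial-like cluster. P1 and P7 overlapped and P14 stood apart, 14.7-fold above P1 (12.2 to 17.8). Rule cells gave 17.4, 17.6 and 651 CPM, and other cells 1.05, 0.872 and 10.0 CPM.

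Slco1a4 encodes OATP1A4, a carrier of organic anions such as conjugated steroids. It was at 36.0 CPM at P1 (27.8 to 45.9), 173 CPM at P7 (153 to 195) and 2336 CPM at P14 (2255 to 2418) in the endothelial-like cluster. It went from the lowest pair of members at P1, whose intervals overlapped, to the highest at P14, a ratio of 64.8 (50.7 to 84.2). In rule cells it was at 11.5, 37.6 and 1495 CPM, and in other cells at 3.05, 7.38 and 71.1 CPM. The share of endothelial-like cells with a Slco1a4 UMI after thinning was 4.91% at P1, 17.2% at P7 and 65.0% at P14. Unthinned, the shares were 19.4%, 47.2% and 75.4%, in the same order although the P14 cells were the shallowest.

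Plvap stood apart from the transporters. Its endothelial-like level was 1232 CPM at P1 (1181 to 1284), 1582 CPM at P7 (1520 to 1647) and 908 CPM at P14 (859 to 960). P14 was the lowest of the 3, 1.36-fold below P1 (1.26 to 1.46) and 1.74-fold below P7 (1.63 to 1.87). At P1, 1 cell held 297 of the 2223 Plvap UMIs, while the highest cell held 62 at P7 and 33 at P14. The highest count in P1 rule cells with a check gene was also 297. The intervals do not cover such spread between cells. The share of these cells with a Plvap UMI was 57.7% at P1 (49.7 to 65.4), 73.6% at P7 (66.4 to 79.9) and 32.3% at P14 (28.4 to 36.3) after thinning. Unthinned it was 92.1%, 91.1% and 34.8%. In the rule cells the order was another, with 291, 317 and 480 CPM, and in rule cells with a check gene the level was 624, 814 and 618 CPM, where P1 and P14 overlapped. The direction of the Plvap difference between P1 and P14 thus turned with how endothelial cells were picked.

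**Figure D1:**
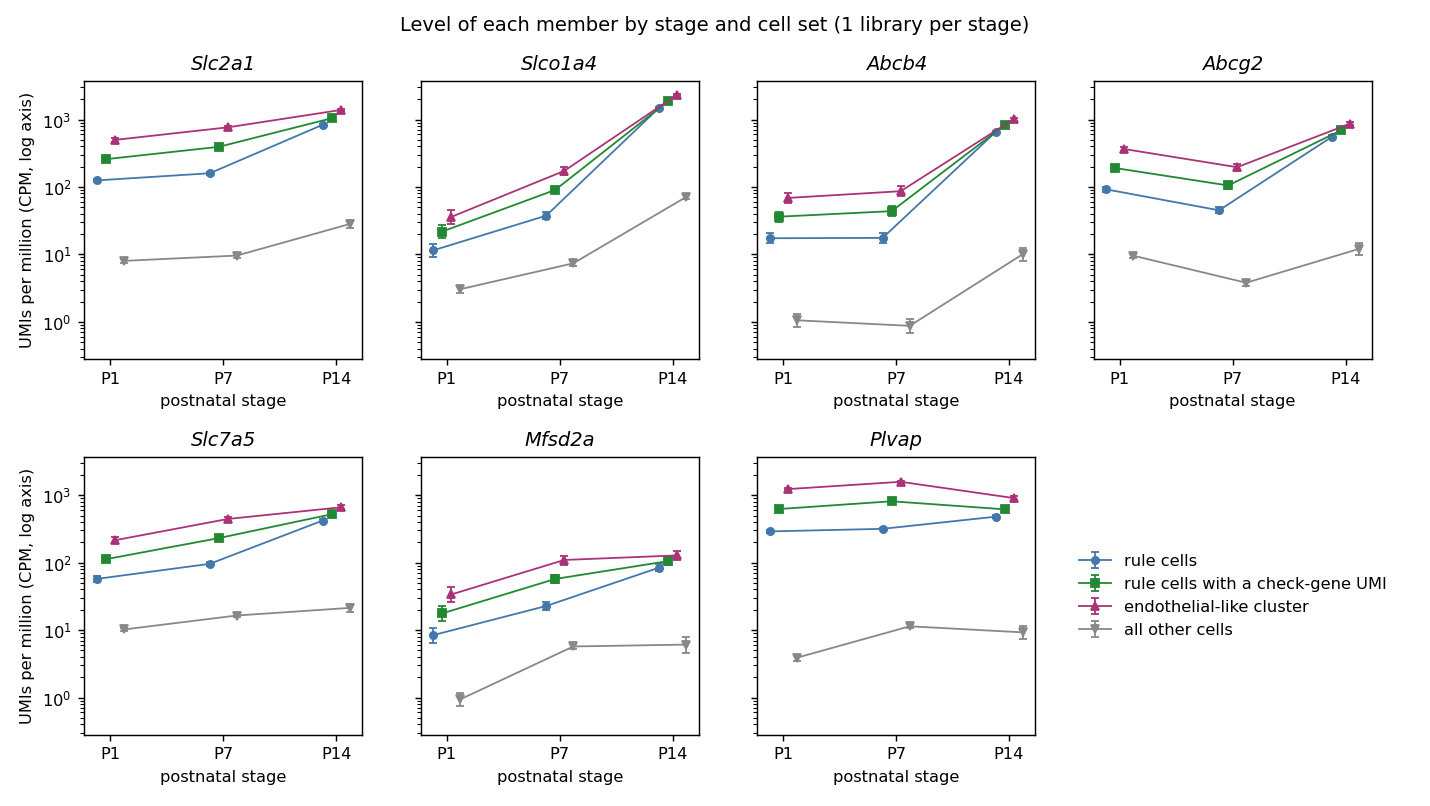
Level of each of the 7 genes in CPM (log axis) against postnatal stage, for rule cells, rule cells with a check-gene UMI, the endothelial-like cluster and all other cells; points are summed counts of 1 library and bars 95% Poisson intervals. The 6 transporters end highest at P14 in all 3 endothelial sets, while Plvap in the endothelial-like cluster goes from 1232 to 1582 to 908 CPM.

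In order of level within the endothelial-like cluster, P1 read Plvap, Slc2a1, Abcg2, Slc7a5, Abcb4, Slco1a4 and Mfsd2a, of which the last pair did not differ beyond their intervals. P7 read Plvap, Slc2a1, Slc7a5, Abcg2, Slco1a4, Mfsd2a and Abcb4, where Abcg2 overlapped Slco1a4 and Mfsd2a overlapped Abcb4. P14 read Slco1a4, Slc2a1, Abcb4, Plvap, Abcg2, Slc7a5 and Mfsd2a, where Plvap overlapped both its neighbours.

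From P1 to P14 the 6 transporters were each at least 2-fold higher in rule cells, in rule cells with a check gene and in the endothelial-like cluster, and Plvap in none of them. Over all genes tested, 19.0% were higher by this measure in rule cells, 18.1% with a check gene and 20.7% in the cluster, and the shares of lower genes were 5.95%, 5.75% and 5.38%, with none of the 7 among them. The median of all genes in the rule cells was itself shifted by 0.29 on the log2 scale. This shift was 0.11 when mitochondrial and ribosomal genes were left out of the totals. Between P1 and P7, 1 of 7 was higher in rule cells (Slco1a4) against 2.74% of all genes, and 3 in the endothelial-like cluster (Slco1a4, Slc7a5 and Mfsd2a) against 3.10%. Between P7 and P14, 6 of 7 were higher in rule cells against 15.5% of all genes, and 3 in the cluster (Slco1a4, Abcb4 and Abcg2) against 16.7%. Mural genes, which mark pericytes and smooth muscle around vessels, were at 124, 208 and 813 CPM in the rule cells from P1 to P14. The log2 difference of the summed transporters between P14 and P1 was 3.65 in rule cells and 3.58 without the rule cells that held 2 or more UMIs of 12 mural genes. Summed, the 6 transporters were at 312 CPM at P1 (300 to 325), 379 CPM at P7 (366 to 392) and 4043 CPM at P14 (3969 to 4119) in rule cells. The sums for the endothelial-like cluster were 1218, 1776 and 6391 CPM. P14 stood apart from the earlier stages in both, with a ratio to P1 of 13.0 in rule cells (12.4 to 13.5) and 5.25 in the cluster (5.01 to 5.50), so the size of the difference depended on the selection and its direction did not. Cells outside the rule were also highest at P14, with sums of 32.8, 43.8 and 149 CPM. Their ratio of P14 to P1 was 4.53 (4.25 to 4.84), so the higher sum at P14 was not particular to the rule cells. In the cells outside the rule, the rule genes were at 14.2, 15.7 and 72.7 CPM from P1 to P14. The check genes were there at 32.5, 31.9 and 62.7 CPM. Whether endothelial cells missed by the rule carried the transporters there was not tested.

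The make-up of the 7 genes was read as the share of each in their summed UMIs. Plvap held 48.2% of their summed UMIs at P1 (46.8 to 49.7), 45.6% at P7 (44.3 to 46.9) and 10.6% at P14 (10.1 to 11.2) in rule cells. With a check gene the shares were 49.5%, 46.9% and 10.9%, and in the endothelial-like cluster 50.3%, 47.1% and 12.4%. These sets hold largely the same UMIs (at P1, 4561 with a check gene and 4420 in the cluster, beside 4721 in rule cells), so their likeness is no independent evidence. The rule cells without a check gene had Plvap at 13.1%, 15.9% and 3.16%. In the 3 endothelial sets the larger step in the Plvap share lay between P7 and P14. Over the same stages the share of Slco1a4 in the endothelial-like cluster went from 1.47% to 5.15% to 32.0%, and that of Abcb4 from 2.81% to 2.58% to 13.8%. Slc2a1 held 20.4%, 22.8% and 19.0%, and Slc7a5 held 8.78%, 13.2% and 9.07%. Cells outside the rule had another make-up, with Plvap at 10.6%, 20.6% and 5.85%.

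**Figure D2:**
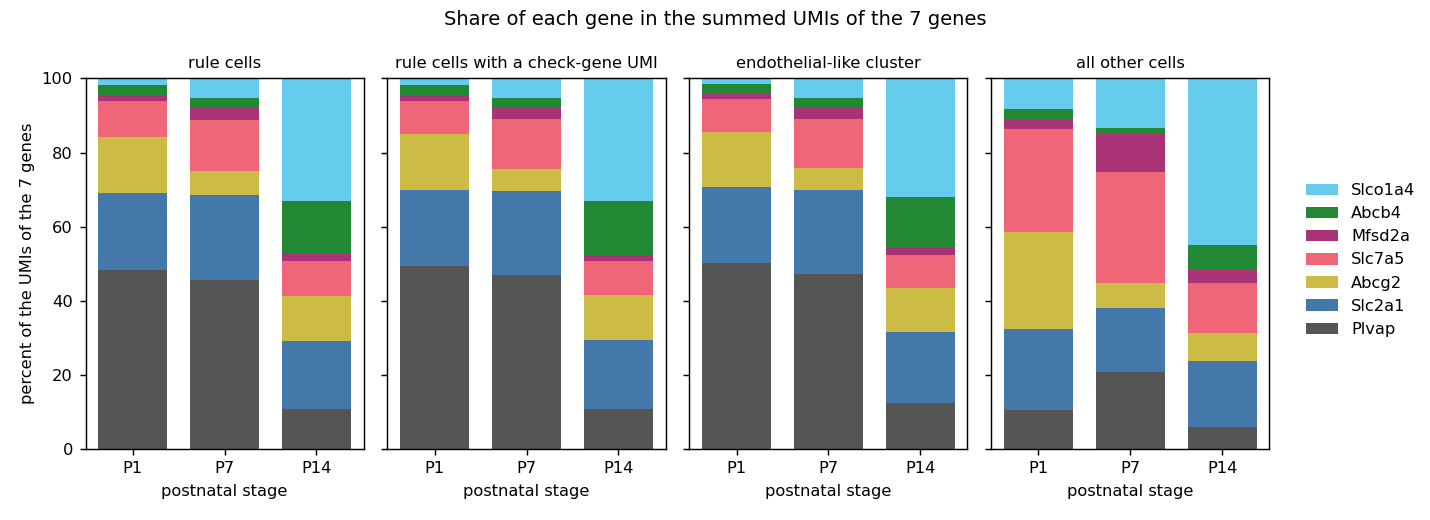
Percent of the summed UMIs of the 7 genes that each gene holds, by postnatal stage, in rule cells, rule cells with a check-gene UMI, the endothelial-like cluster and all other cells, each bar being 1 library. The 3 endothelial sets share most of their UMIs. Plvap holds 48.2%, 45.6% and 10.6% in rule cells, and Slco1a4 and Abcb4 make up most of the gain at P14.

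Other genes of barrier and vessel biology were read from lists of known function, as counts in the endothelial-like cluster at P14 against P1. Of 25 measured other barrier transporters, 13 were at least 2-fold higher and 1 lower (median log2 difference 1.38, against 0.37 for all genes, of which 20.7% were higher and 5.38% lower). Slco1c1, a thyroid hormone and organic anion carrier, was at 88.1, 172 and 395 CPM from P1 to P14. Of 16 regulators of Wnt signalling and barrier identity, 12 were higher, with a median of 1.51. Sox17, an endothelial transcription factor, was at 203, 316 and 1137 CPM, and Lef1, which acts in Wnt signalling, at 59.9, 100.4 and 250 CPM. Tight junction genes were higher in 3 of 8, with Tjp1, the scaffold ZO-1, at 120, 207 and 536 CPM. The stages of P1 and P7 were nearer to each other than to P14 for Slco1c1, Sox17, Lef1 and Tjp1.

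Genes of caveolae and fenestrae other than Plvap were higher in 4 of 12 and lower in none, with a median of 0.48. For these and the lists below, the shares over all genes were again 20.7% higher and 5.38% lower, with a median of 0.37. Cav1, the coat protein of caveolae, was at 569, 656 and 632 CPM, and Cavin2 at 472, 275 and 523 CPM, and unlike Plvap neither had its lowest level at P14. Arterial genes were higher in 5 of 8, venous in 4 of 6 and capillary in 3 of 4. Of 5 measured genes of tip cells and vessel growth, 1 was higher and 2 lower. The 2 lower ones were Apln at 123, 199 and 27.8 CPM and Esm1 at 61.0, 39.0 and 2.20 CPM, the last from 3 UMIs. Apln, a ligand made by sprouting endothelium, shared with Plvap a peak at P7 and a minimum at P14.

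The sharing of cells by Plvap and the transporters was read at each stage, and its difference between stages was not tested. Within the endothelial-like cluster, a UMI of at least 1 of the 6 transporters was found in 60.6% of cells with Plvap and 66.7% of cells without at P1, a difference of −6.03 percentage points (−20.2 to 8.93). At P7 the shares were 68.0% and 78.3% (−10.3 points, −23.0 to 5.43). At P14 they were 65.4% and 89.4% (−24.0 points, −31.7 to −16.5). Only the P14 interval lay wholly below 0, and at P1 and P7 the intervals leave room for differences of either sign. The splits are also not alike between stages. Before thinning, 92.1% of the cluster held a Plvap UMI at P1, 91.1% at P7 and 34.8% at P14. Most P1 and P7 cells counted as without Plvap had thus held a UMI before thinning. There the split divides cells more by Plvap level than by its presence.

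At P14 all 6 transporters were found less often in endothelial-like cells with Plvap. Slco1a4 was in 36.9% of cells with Plvap and 78.5% of cells without, Abcb4 in 29.6% and 63.0%, Slc7a5 in 19.0% and 51.9%, and Slc2a1 in 35.8% and 65.2%. The gaps were smaller for Abcg2 (37.4% and 50.5%) and Mfsd2a (3.35% and 13.3%), and the 6 intervals of the difference all lay below 0. By level, 4 of the 6 (Slco1a4, Abcb4, Slc7a5 and Mfsd2a) were at least 2-fold lower in cells with Plvap and none higher, against 8.26% and 7.20% of all genes. In rule cells with a check gene 3 of the 6 were lower (Slco1a4, Slc7a5 and Mfsd2a) and none higher, against 7.52% and 4.81%, and in rule cells 1 was lower (Mfsd2a) and none higher, against 9.11% and 4.90%. At P7 the interval of the difference lay below 0 for Slco1a4 (12.5% and 30.4%) and above 0 for Mfsd2a (8.59% of 128 cells with Plvap, and 0 of 46 without, which allows a share of up to 7.71%), and at P1 for none of the 6.

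**Figure D3:**
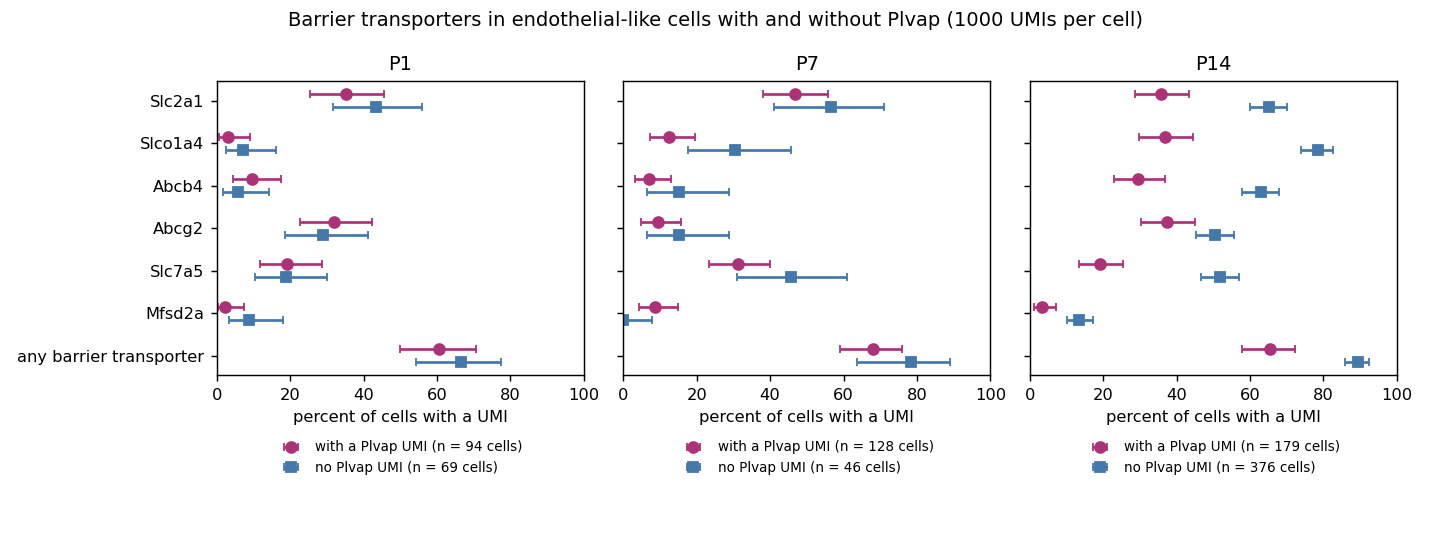
Percent of endothelial-like cells with a UMI of each transporter, and of any of the 6, among cells with and without a Plvap UMI at P1, P7 and P14; cells were thinned to 1000 UMIs and bars are exact 95% binomial intervals over cells of 1 library. For any transporter the intervals overlap at P1 and P7 and lie apart at P14, where 65.4% of cells with Plvap and 89.4% of cells without held one. Most P1 and P7 cells shown without a Plvap UMI had held one before thinning.

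In the rule cells the picture was another. At P1 and P7 the share with any transporter was far higher in cells with Plvap (59.4% against 9.69%, and 65.7% against 9.59%), and at P14 the difference had an interval that held 0 (67.2% against 67.8%, −0.61 points, −8.10 to 6.40). In these sets the cells without Plvap at P1 and P7 were mostly cells without a check gene, as described above. Rule cells with a check gene lay between, with differences of 37.2, 42.4 and −17.6 points. Even in the rule cells at P14 the intervals of the difference lay below 0 for Slc2a1, Slco1a4, Abcb4, Slc7a5 and Mfsd2a, and the interval held 0 for Abcg2 (39.3% with Plvap, 33.3% without). By level in these cells, Slc2a1 (1055 against 944 CPM) and Abcg2 (667 against 594 CPM) were higher with Plvap. Slco1a4, Abcb4, Slc7a5 and Mfsd2a were lower.

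The P14 cells divided further by the number of Plvap UMIs. In endothelial-like cells at 1000 UMIs, the 376 cells with 0 Plvap UMIs carried the 6 transporters at 7856 CPM, the 67 with 1 UMI at 6358 CPM and the 112 with 2 or more at 2241 CPM. The last class was the lowest in all 3 endothelial sets, but the order of the first 2 depended on the set. Rule cells carried 4845, 6195 and 2202 CPM in the same classes, and rule cells with a check gene 6260, 6266 and 2202 CPM. Slc2a1 was highest in cells with 1 Plvap UMI in all 3 sets. It was at 1540, 1940 and 661 CPM in the cluster, where the first 2 intervals overlapped. In rule cells it was at 944, 1659 and 639 CPM, and with a check gene at 1216, 1684 and 639 CPM. In the endothelial-like cluster, Slco1a4 was 6.28-fold higher in cells with 0 than with 2 or more Plvap UMIs (4.79 to 8.38), Slc7a5 4.45-fold (2.89 to 7.21), Abcb4 3.11-fold (2.28 to 4.34), Slc2a1 2.33-fold (1.83 to 3.01) and Abcg2 1.94-fold (1.46 to 2.61). Mfsd2a had 0 UMIs in the 112 cells. Its ratio was 6.35 with 3 counts taken for the 0, and the exact lower limit was 5.02. The folds were smaller in rule cells, at 3.91 for Slco1a4 (3.01 to 5.17) and 2.20 for the sum (1.94 to 2.50, against 3.51 in the cluster), and for Abcg2 the interval held 1 (1.16, 0.886 to 1.54). On average, endothelial-like cells with 0 Plvap UMIs showed 3.22 of the 6 transporters and cells with 2 or more showed 1.12. At P1 the 69 endothelial-like cells with 0 and the 51 with 2 or more Plvap UMIs carried the transporters at 1812 and 1255 CPM, a ratio of 1.44 (1.06 to 1.98), with 1.61 for Slc2a1 (1.01 to 2.62). At P7 the 46 and 88 cells carried them at 2413 and 2114 CPM, a ratio of 1.14 (0.894 to 1.45). In rule cells with a check gene the ratio of the sum was below 1 at both stages, at 0.466 and 0.318.

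**Figure D4:**
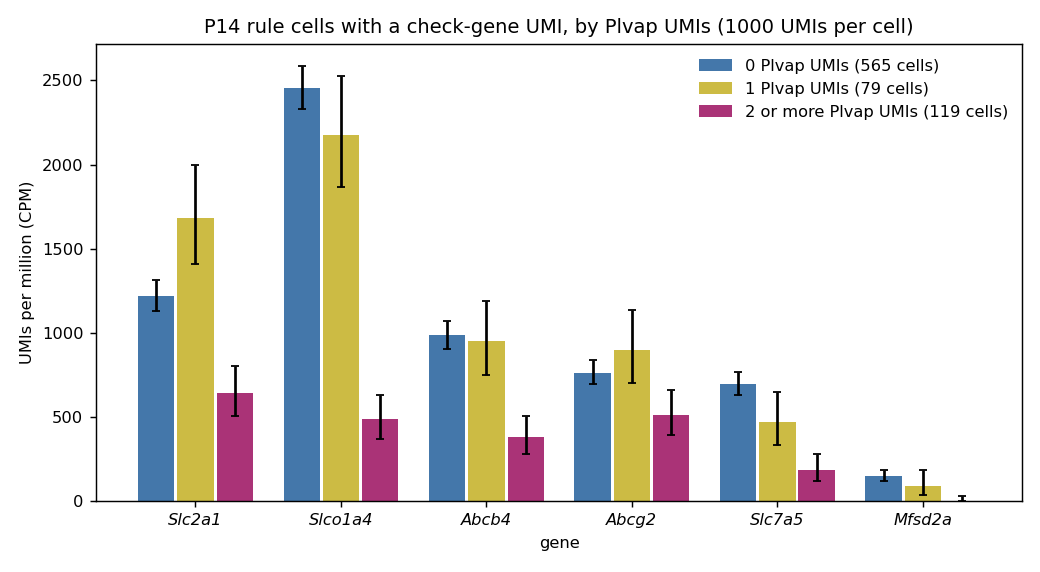
Level of the 6 transporters in CPM in P14 rule cells with a check-gene UMI that held 0, 1, or 2 or more Plvap UMIs among 1000; bars are summed counts of 1 library with 95% Poisson intervals. In cells with 2 or more Plvap UMIs Slco1a4 is at 487 CPM against 2455 CPM in cells with 0, and Mfsd2a has no UMI.

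Among themselves the transporters shared cells at P14 more than the product of their shares gives. In rule cells with a check gene (763 cells at 1000 UMIs), Slco1a4 and Abcb4 were found together in 40.2% of cells, with 29.4% from the product, and Abcb4 and Slc7a5 in 26.1%, with 17.3%. All 15 pairs of transporters lay above the product, between 1.27 and 1.74 times it. All 6 pairs with Plvap lay below it, between 0.35 times for Mfsd2a and 0.95 times for Abcg2. At the earlier stages this was not so. At P7 the pairs with Plvap lay between 1.21 times for Slco1a4 and 2.27 times for Mfsd2a. At P1 they lay between 0.83 times for Mfsd2a and 2.13 times for Abcb4. These ratios are a description of cells of 1 library per stage, thinned to the same depth. The set held cells in and outside the endothelial-like cluster.

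Beside Plvap, Fabp4, a fatty acid carrier of peripheral capillaries, was the gene with the largest difference towards Plvap cells at P14, at 726 CPM with Plvap and 13.3 CPM without in the endothelial-like cluster. It was followed by Rbp7, Gpihbp1, Ramp3 and Meox1 among 4132 genes ranked. Gpihbp1, which holds lipoprotein lipase on capillary walls, was at 296 against 7.98 CPM (53 and 3 UMIs). Meox1 had 15 UMIs with Plvap and 0 without. Its ratio was 10.5 with 3 counts taken for the 0, and the exact lower limit was 7.53. On the other side stood Tfrc, Sema3c, Lrp8, Notum and Nrgn. Tfrc, the transferrin receptor of barrier endothelium, was at 33.5 CPM with Plvap and 338 CPM without, and Lrp8, a lipoprotein receptor, at 5.59 and 106 CPM. The first 3 genes with Plvap, Fabp4, Rbp7 and Gpihbp1, were the same in rule cells and in rule cells with a check gene. The genes on the other side differed: Epyc, Acta2, Tagln, Np4 and Notum with a check gene, and Slc7a11, Slc16a11, Notum, Mfap5 and Slc22a2 in rule cells. These include genes that lead clusters of other cell types.

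Of the lists at P14 in the endothelial-like cluster, 10 of 26 other barrier transporters were at least 2-fold lower with Plvap and 1 higher (median −0.69), and 7 of 17 Wnt and barrier regulators lower and 1 higher (median −0.79), where 8.26% of all genes were lower and 7.20% higher. Arterial genes were lower in 4 of 8 and higher in none, while venous genes were higher in 4 of 7 and lower in none (medians −0.91 and 1.05). Genes of caveolae and fenestrae other than Plvap were higher in 4 of 12 and lower in none. The check genes were neither higher nor lower in any of 8, with a median of −0.03, beside 0.05 for all genes.

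Across the clusters at P14, the transporters were highest in the endothelial-like cluster and in a cluster of 104 P14 cells led by Slco1a4, Abcb4 and Sox17. This cluster was not named, since its 10 leading genes held the mural genes Acta2 and Abcc9 beside endothelial ones. It carried Slco1a4 at 2121 CPM, Abcb4 at 990 CPM and Slc2a1 at 907 CPM, against 2336, 1010 and 1386 CPM in the endothelial-like cluster, and Plvap at 225 CPM (177 to 281), below the 908 CPM of the endothelial-like cluster.

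Outside these clusters some members were found at higher levels than others. Slco1a4 was at 118 CPM (106 to 131) at P14 in a cluster led by Coch, the cochlin gene of the spiral ligament, where Slc2a1 was at 18.5 CPM, so the ratio of the pair was not that of the endothelial-like cluster. At P1 the cochlear epithelium-like cluster carried Slco1a4 at 46.4 CPM (38.2 to 55.9), overlapping the 36.0 CPM of endothelial-like cells at that stage. Slc7a5 and Mfsd2a were found in glia-like cells, at 101 and 38.2 CPM in the P14 glia-like cluster led by Mt3, where Plvap had 2 UMIs in 330 cells. Plvap was at 161 CPM at P1 and 210 CPM at P7 in a small cluster led by Car2, Apoc4 and Actg2, of 56 and 86 cells, in which Slco1a4 and Mfsd2a had no UMI (3 counts would be 7.81 and 4.56 CPM). Plvap was found in 0 of 306 P14 glia-like cells at 1000 UMIs (up to 1.20%) and Slco1a4 in 1.31% of them, against 32.3% and 65.0% of endothelial-like cells. Over all P14 cells outside the rule the shares were 0.808% for Plvap and 7.13% for Slco1a4. The level of free RNA was not measured. The median depth of that glia-like cluster, with 330 of its 334 cells from P14, was 1957 UMIs, and that of the P14 endothelial-like cells 1115. A cluster led by Lyz2 carried all 7 at P14, from 7.10 CPM for Mfsd2a to 147 CPM for Slco1a4. Of its 540 P14 cells, 89 met the endothelial rule, and 70 of those held a check gene.

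**Figure D5:**
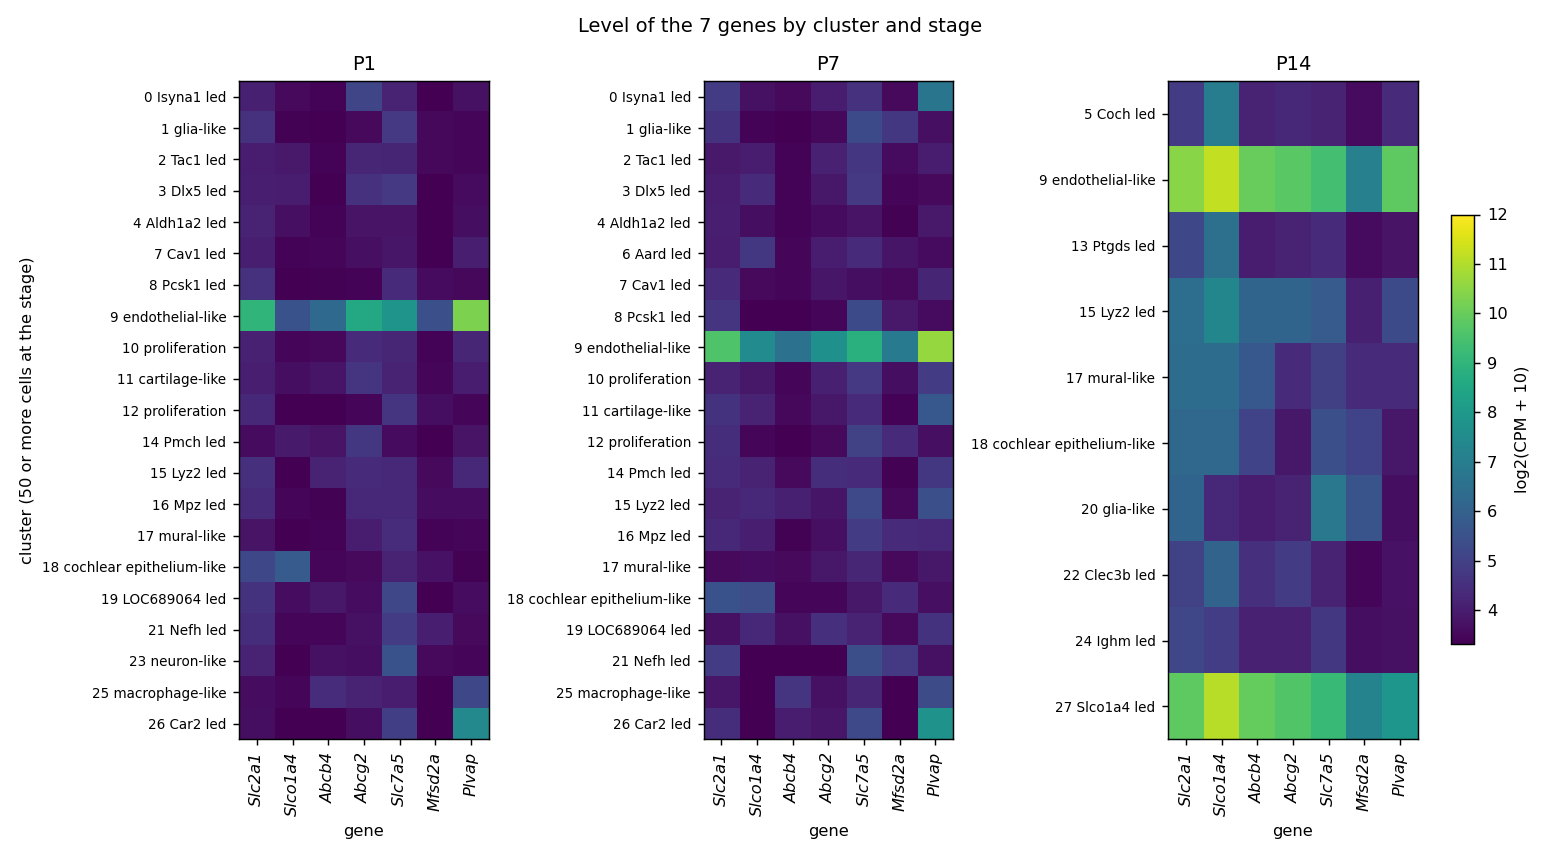
Level of the 7 genes as log2(CPM + 10) in each cluster with 50 or more cells at P1, P7 and P14, each square being the summed counts of 1 cluster in 1 library. The endothelial-like row is the brightest for every gene at P1 except Slco1a4, and at P14 the cluster led by Slco1a4 comes close to it for Slco1a4, at 2121 against 2336 CPM, but not for Plvap, at 225 against 908 CPM.

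The genes whose levels ran most like each member over the 28 clusters of 50 or more cells, by Pearson's r of log2(CPM + 10) among 7750 genes, were as follows. Vwf was nearest to Slc2a1 (r = 0.97) and Slco1a4 (0.92), Sox17 to Abcb4 (0.98) and Cyyr1 to Abcg2 (0.97). Slc7a5 was nearest to Slc2a1 (0.90) and Mfsd2a to Slc7a5 (0.94). The nearest gene to Plvap, the taurine carrier Slc6a6, reached 0.87, and none of the 6 transporters was among its nearest 3. The clusters share libraries and depth, so these values are a description.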

How the data were processed

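Dissociated cochlear tissue was run on 10x 3′ chemistry with 1 library per stage. The deposited matrices hold raw UMI counts per gene and cell; per the file headers they came from Cell Ranger software 3.1.0, and the labels name the rat build rn6. The authors' processing notes also list Seurat 3.1.1.

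Kept barcodes (14068, 14501 and 6358 before and 12779, 12581 and 5281 after the filter) held 501 to 4999 genes and under 25% mitochondrial UMIs. Counts were summed per cell set and stage and divided by total UMIs (CPM), with exact Poisson intervals for levels, exact conditional intervals for ratios, exact Clopper-Pearson intervals for shares and Newcombe intervals for differences of shares. Folds for counts of genes used 10 CPM added, a minimum of 10 CPM and 2-fold. Kept cells were clustered with Seurat 5.3.0 in R 4.3.3 (2000 variable genes without the 7 members, 10 components, resolution 0.8). Python 3.11.15, scipy 1.17.1 and scanpy 1.11.5 were used otherwise. Scrublet marked 4.87%, 6.16% and 0.0379% of cells at P1, P7 and P14. At P14 this was 2 of 5281 cells, too few to rely on, and whether the method failed there was not tested. Marked cells were kept, and leaving them out was an alternative. The scripts were tested on simulated data.

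The genes and gene lists were chosen with earlier results of these data known. Named genes were the members, the rule genes, the up to 4 most abundant genes of each list, the 3 nearest genes over clusters, and the 5 highest and 5 lowest genes of the P14 Plvap split; genes that lead clusters were named beside them. Abcb1a was not analysed here, so the transporters were 6 where 7 were planned. Alternatives covered the endothelial rule, doublets, mural cells, depth, scaling, pseudocount and fold.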

Additional observations from a re-analysis of the deposited data

Results flagged for a closer look

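Barcodes outside the cell filter that met the endothelial rule also held Plvap, at 510.6 CPM at P1 (112 barcodes), 547.3 CPM at P7 (95 barcodes) and 660.9 CPM at P14 (261 barcodes), above the limit that 3 counts set. The transporters were summed there to 507, 693 and 10144 CPM. These barcodes were used in no comparison.

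In rule cells with a check gene, the share of cells with a transporter UMI was higher with Plvap than without at the earlier stages and lower at P14. For any of the 6 the differences were 37.24 points at P1, 42.41 at P7 and −17.58 at P14. Slc2a1 gave 20.89, 29.31 and −20.75 points, and Slc7a5 gave 12.73, 19.96 and −24.47. Abcb4 gave 7.281 points at P1 and −21.96 at P14, and Mfsd2a 7.881 at P7 and −8.677 at P14. The difference between stages was not tested. In the endothelial-like cluster the differences for any of the 6 were −6.03, −10.3 and −24.0 points.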

How the results depend on the processing

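No paired analysis was possible because each stage had 1 library. The results rest on 1 library per stage, and depth limits the P14 shares most. All 7 genes were higher in endothelial cells at P7 and P14 under all 15 alternatives, and 5 to 7 at P1. The rules without Cldn5 and with the Slco1a4 and Abcb4 cluster, and the cluster combined with thinning or mural cells, were added after seeing the data. The cause of the changes below was not tested.

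The log2 difference of Plvap between P14 and P1 (0.706) was 0.2796 with 3 UMIs of the rule genes, −0.2136 with 5, −0.2323 with 2 genes, −0.0133 with a check gene, −0.6145 with the rule after thinning, −0.4358 in the endothelial-like cluster, −0.666 with the Slco1a4 and Abcb4 cluster added, −0.1401 without Cldn5, 1.161 for mean CPM per cell, 0.3267 with median-of-ratios factors and 0.455 without mitochondrial and ribosomal genes. In the same order the summed transporters (3.654) gave 3.296, 2.911, 2.779, 2.971, 2.098, 2.382, 2.328, 2.785, 4.146, 3.269 and 3.406, with 3.584 without mural cells and 3.756 at a mitochondrial limit of 10%.

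The P14 difference in the share with any transporter between cells with and without Plvap (−0.608 points) was −12.59 with 3 UMIs, −20.23 with 5, −14.34 with 2 genes, −17.58 with a check gene, −11.12 with the rule after thinning, 3.071 without mural cells, −14.94 at 500 UMIs and 10.17 at 2000. In the endothelial-like cluster it was −24.0, with −24.78 when the Slco1a4 and Abcb4 cluster was added, −33.03 at 500 UMIs, −23.36 at 2000 and −22.48 without mural cells. The P1 and P7 differences turned negative in the cluster (−6.028 and −10.29), with the added cluster (−5.076 and −12.06), at 500 UMIs (−0.9058 and −8.011) and without mural cells (−9.201 and −8.696).

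Abcb4 at P7 over P1 turned to −0.1095 with 3 UMIs, −0.1587 with 5, −0.137 after thinning, −0.00708 without doublets, −0.04694 at 10%, −0.03866 with median-of-ratios factors and −0.02967 without mitochondrial and ribosomal genes. Plvap at P7 over P1 turned to −0.06735, −0.1043 and −0.02309 with 3 UMIs, 5 UMIs and thinning. Plvap at P14 over P7 turned to −0.1094 with 5 UMIs, −0.4608 with 2 genes, −0.3907 with a check gene, −0.5914 after thinning, −0.7941 in the cluster, −1.018 with the added cluster and −0.3382 without Cldn5.

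With a pseudocount of 1 CPM and at 1.5-fold, genes higher in rule than other cells went from 191 to 302 and 381 at P1 and from 213 to 348 and 423 at P7, and at P14 from 675 to 1341 at 1.5-fold. Lower genes went from 162 to 298 and 373, from 121 to 259 and 375, and from 319 to 686 and 909. Between stages in rule cells, higher genes went from 224 to 696 and 1080 (P7 over P1), from 1411 to 2364 and 2872 (P14 over P7) and from 1724 to 2750 and 3240 (P14 over P1), and lower genes from 118 to 367 and 632, from 566 to 970 and 1464, and from 540 to 885 and 1312. In the Plvap split of rule cells, higher genes went from 1243 to 2143 and 2470 at P1, from 965 to 1514 and 1881 at P7 and from 438 to 938 and 1417 at P14. Lower genes went from 1428 to 2208 at 1.5-fold at P7, and from 814 to 1373 and 1632 at P14.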
